A study of Mus musculus with 12 samples.

Results

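TRAV8 and TRAV10 are 2 small families of variable segments of the mouse T cell receptor (TCR) alpha chain, and the T cells that used them were taken from 6 sorted populations of splenic CD8+ T cells. A cell was counted in a family when the TRA contig with its most unique molecular identifiers (UMIs, tags that mark single captured RNA molecules) carried TRAV8-1, TRAV8D-1, TRAV8D-2, TRAV8N-2, TRAV8-2, TRAV10, TRAV10D or TRAV10N. This gave 5023 of 66136 cells with a TRA chain (7.59%), of which 3057 used a TRAV8 copy (4.62%) and 1966 a TRAV10 copy (2.97%). Counted as clonotypes, defined as cells of a library with the same nucleotide CDR3 in both chains, there were 3641 of 48039, with 2195 in TRAV8 and 1446 in TRAV10. In all, 7 of the 8 segments were found, and TRAV8-2 had 0 contigs. Whether the V(D)J reference of the authors held this pseudogene is not known here, so its 0 contigs put no limit on its use.

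All mice were wild-type C57BL/6. They received anti-CD137 (clone 3H3, 10 µg, 5 mice), which binds a receptor that costimulates T cells once they are activated, or a control immunoglobulin (clone HRPN, 100 µg, 10 mice), on 2 days a week over 14 days. From each treatment, cells with high CD44 were sorted as effector cells without PD1 (Teff), as precursor exhausted cells with PD1 and Slamf6 but no Tim3 (Tpex), and as exhausted cells with PD1 and Tim3 but no Slamf6 (Tex). Each population gave 1 gene expression library and 1 TCR library. No label ties a cell to its mouse, and the subsets of a treatment came from the same mice. Dose and number of mice differed with the antibody, so they cannot be told apart from it. Expression of the sort markers was not analysed here, because no values per gene were used.

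Each alpha chain is made by joining 1 of many V segments to 1 of many J segments, with bases lost or added at the joint, and the joint forms the CDR3 loop that contacts the peptide. CDR1 and CDR2 lie within the V segment and mostly contact the MHC molecule. In C57BL/6 mice the middle of the TRA locus is present in several near-identical copies, and the letters D and N in a segment name mark the duplicated copies. Joining starts with V segments near the J cluster and J segments at its 5′ end, where numbers are high, and can be repeated with V segments farther away and J segments of lower number.

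With 1 library per treatment and subset, no difference between treatments or subsets has a replicate check, and no test was made. Shares are given with exact Clopper-Pearson 95% intervals, and differences with intervals built from these. Both cover counting error only, and cells that share a clonotype share an origin. A segment was called higher or lower when its share differed at least 1.5-fold. Such calls are set beside the percent of all TRAV segments with at least 20 cells or clonotypes in the 2 libraries together that passed the same limit. The libraries held 4035 and 4176 UMIs per cell at the median in anti-CD137 and control Teff, 1950 and 4729 in Tpex, and 3473 and 5619 in Tex. A TRA chain was found in 34.5% of anti-CD137 Tpex cells and 48.4% of anti-CD137 Tex cells, against 68.9% to 79.1% in the other 4 libraries. Of TCR barcodes, 66.9% in anti-CD137 Tpex and 35.2% in anti-CD137 Tex lay outside the cell table, against 14.5% and 3.16% in control. In anti-CD137 Tpex the first TRA had 2 UMIs at the median and 23.8% had 1 UMI, against 5 and 4.81% in control Tpex. Chain pairing also differed: of other cells with the same TRB as a TRAV8 cell, 45.3% had the same TRA in anti-CD137 Tpex, against 93.7% in control Tpex. The shares were 49.0% in anti-CD137 Teff and 39.5% in control Teff, and 81.2% in anti-CD137 Tex and 98.8% in control Tex. For other TRAV they were 41.5% and 91.9% in anti-CD137 and control Tpex, 49.5% and 36.0% in Teff, and 90.2% and 95.3% in Tex. The part that pairing had in the Tpex values was not tested. Each pair of libraries shared 148 to 941 cell barcodes, 19 of them in family cells, and 0 of those 19 had the same TRA CDR3 in both libraries.

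The copies lay on chromosome 14, plus strand, in the GENCODE M21 annotation of GRCm38 (mm10), each with a leader exon and a V exon. In order along the chromosome, TRAV8D-1 spanned chr14:52778447-52778995, TRAV10D chr14:52810934-52811496, TRAV8D-2 chr14:53042428-53042891, TRAV10N chr14:53122114-53122610, TRAV8N-2 chr14:53345890-53346424, TRAV8-1 chr14:53469756-53470232 and TRAV10 chr14:53505727-53506286. The pseudogene TRAV8-2 spanned chr14:53738375-53738838. The distance to TRAJ61, the first J segment, was 1376 kb for TRAV8D-1, 1344 kb for TRAV10D, 1112 kb for TRAV8D-2, 1032 kb for TRAV10N, 809 kb for TRAV8N-2, 685 kb for TRAV8-1 and 649 kb for TRAV10.

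The TRAV10 copies differed from each other at 2 to 4 of 267 bases, counted from 1 at the first base of framework 1. The bases that separate TRAV10 from TRAV10D and TRAV10N (T21C and T87C) are in capitals, and neither changes a residue.
TRAV10: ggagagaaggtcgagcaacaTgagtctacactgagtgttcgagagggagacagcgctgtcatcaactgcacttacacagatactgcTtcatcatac
TRAV10D: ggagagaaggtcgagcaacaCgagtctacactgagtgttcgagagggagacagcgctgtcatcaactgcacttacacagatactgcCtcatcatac
TRAV10N: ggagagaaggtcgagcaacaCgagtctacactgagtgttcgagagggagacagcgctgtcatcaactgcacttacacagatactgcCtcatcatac
TRAV10N differed from the other TRAV10 copies at 2 further bases at the start of framework 3 (T188C and G195A), in capitals in this stretch of bases 169 to 219. The first of them changes a residue (I63T).
TRAV10, framework 3: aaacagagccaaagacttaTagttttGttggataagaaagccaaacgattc
TRAV10N, framework 3: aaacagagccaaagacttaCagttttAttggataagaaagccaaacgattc

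The TRAV8 copies formed 2 pairs. TRAV8D-1 differed from TRAV8-1 at 3 of 264 bases, in capitals in the stretch of bases 1 to 144, and at 2 residues (S8L in framework 1 and K41E in framework 2).
TRAV8D-1: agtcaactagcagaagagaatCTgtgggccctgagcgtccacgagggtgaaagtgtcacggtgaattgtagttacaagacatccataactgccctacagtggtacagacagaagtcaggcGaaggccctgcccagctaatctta
TRAV8-1: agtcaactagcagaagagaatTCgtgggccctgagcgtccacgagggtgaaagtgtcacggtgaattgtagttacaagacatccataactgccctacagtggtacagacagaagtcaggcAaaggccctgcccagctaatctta
TRAV8D-2 and TRAV8N-2 differed at 23 of 264 bases and 10 residues, 5 in framework 2 and 5 in framework 3, and had the same CDR1 and CDR2. Their bases 79 to 144, CDR1 and framework 2, hold 10 of these base differences, in capitals.
TRAV8D-2: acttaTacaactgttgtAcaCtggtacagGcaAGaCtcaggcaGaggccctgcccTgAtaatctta
TRAV8N-2: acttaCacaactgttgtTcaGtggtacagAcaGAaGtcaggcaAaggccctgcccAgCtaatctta
Between the pairs, TRAV8-1 and TRAV8D-2 had 83.3% of bases in common. The sequences are those of 97.8% to 100% of the deposited contigs of each copy and equal the annotated V exons. The V name in the authors' deposited table was used throughout, and exchange of names between copies that differ at 2 bases was not tested.

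In Teff the copies held the same rank order by treatment except for 1 exchange, and no copy passed the 1.5-fold limit. TRAV10 was the most used, by 1.76% of cells with a TRA in anti-CD137 and 1.70% in control. TRAV8N-2 followed with 1.38% in anti-CD137 and 1.44% in control, TRAV8D-2 with 1.27% in anti-CD137 and 1.51% in control, and TRAV8-1 with 1.15% in anti-CD137 and 1.22% in control. TRAV10N held 0.695% in anti-CD137 and 0.857% in control. TRAV8D-1 held 0.479% in anti-CD137 and 0.420% in control, and TRAV10D 0.451% in anti-CD137 and 0.403% in control. In each Teff library the intervals of neighbours in this order overlapped among TRAV8N-2, TRAV8D-2 and TRAV8-1 and between TRAV8D-1 and TRAV10D. The TRAV10 interval lay above those of the TRAV8 copies in anti-CD137 Teff but reached into those of TRAV8D-2 and TRAV8N-2 in control Teff. Called higher with anti-CD137 were 0 of 7 copies and called lower 0 of 7, by cells and by clonotypes, where 0 percent of all TRAV segments were higher and 1.16 percent lower in each count.

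In Tpex, TRAV8N-2 was higher with anti-CD137 by the 1.5-fold limit. It was among 25 of 80 TRAV segments called higher by cells and 7 of 73 by clonotypes. It was used by 136 of 4556 cells in anti-CD137 Tpex (2.99%), against 174 of 10178 in control Tpex (1.71%), a difference of 1.28 percentage points (0.729 to 1.86). It also made up 2.67% of anti-CD137 clonotypes and 1.55% of control clonotypes, a difference of 1.13 points (0.502 to 1.79). TRAV8N-2 was the 1 of 7 copies called higher in each count, and 0 were called lower. Of all TRAV segments, 31.2 percent were called higher and 16.2 percent lower by cells, and 9.59 percent higher and 19.2 percent lower by clonotypes. The share of TRAV8N-2 was under the 1.5-fold limit when clonotypes were defined by the TRA CDR3 alone (2.25% in anti-CD137 and 1.57% in control). It was also under the limit for clonotypes of cells with exactly 1 TRA and 1 TRB (2.22% and 1.501%) and when all TCR barcodes were counted (2.54% and 1.71% of cells). Of the other copies, TRAV8D-2 held 1.65% of anti-CD137 and 1.16% of control cells, a difference of 0.487 points (0.0701 to 0.945) that was not seen by clonotypes (1.69% in anti-CD137 and 1.49% in control). TRAV8-1 held 1.14% and 1.15%, TRAV8D-1 0.329% and 0.236%, TRAV10 1.56% and 1.40%, TRAV10D 0.417% and 0.334%, and TRAV10N 0.922% and 1.04% in anti-CD137 and control Tpex cells. As a family, TRAV8 was used by 6.10% of anti-CD137 and 4.25% of control Tpex cells (difference 1.85 points, 1.06 to 2.68). By clonotypes it held 5.69% in anti-CD137 and 4.44% in control (1.25 points, 0.307 to 2.22), and 4.95% and 4.61% by TRA CDR3 alone.

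In Tex, TRAV10N and TRAV10D were lower by cells with anti-CD137. TRAV10N was used by 28 of 4789 cells in anti-CD137 Tex (0.585%), against 172 of 7906 in control Tex (2.18%), a difference of -1.59 points (-1.99 to -1.19). TRAV10D was used by 19 cells in anti-CD137 Tex (0.397%), against 92 in control Tex (1.16%), a difference of -0.767 points (-1.07 to -0.451). They were 2 of 6 copies called lower, and 0 were called higher, where 31.9 percent of all TRAV segments were called lower and 38.9 percent higher by cells. The difference rested on few clonotypes. A single clonotype held 89 of the 92 control TRAV10D cells, and without the largest clonotype of the copy in each library TRAV10D was at 0.230% in anti-CD137 and 0.0384% in control, so that the direction turned. For TRAV10N the same step left 0.460% in anti-CD137 and 1.26% in control. By clonotypes TRAV10N had 16 in each Tex library (1.22% in anti-CD137 and 1.42% in control), and TRAV10D had 9 in anti-CD137 (0.684%) and 4 in control (0.356%).

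Of the other copies in Tex, TRAV10 held 0.752% of anti-CD137 and 0.885% of control cells, TRAV8-1 0.835% and 0.645%, TRAV8D-2 1.40% and 1.80%, and TRAV8N-2 2.23% and 2.67%. TRAV8D-1, under the minimum of 20 cells and so not called, was found in 13 anti-CD137 cells (0.271%) and 5 control cells (0.0632%), a difference of 0.208 points (0.0559 to 0.405). Counted by clonotypes, TRAV10 had 13 in anti-CD137 Tex (0.988%) and 23 in control Tex (2.05%), and was the 1 of 5 copies called lower, where 21.7 percent of all TRAV segments were lower. None of the 5 was called higher (0, against 15.2 percent of all segments). The TRAV10 family held 1.73% of anti-CD137 and 4.22% of control Tex cells (-2.49 points, -3.08 to -1.89) but 2.89% and 3.83% of clonotypes (-0.938 points, -2.48 to 0.545).

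**Figure D1:**
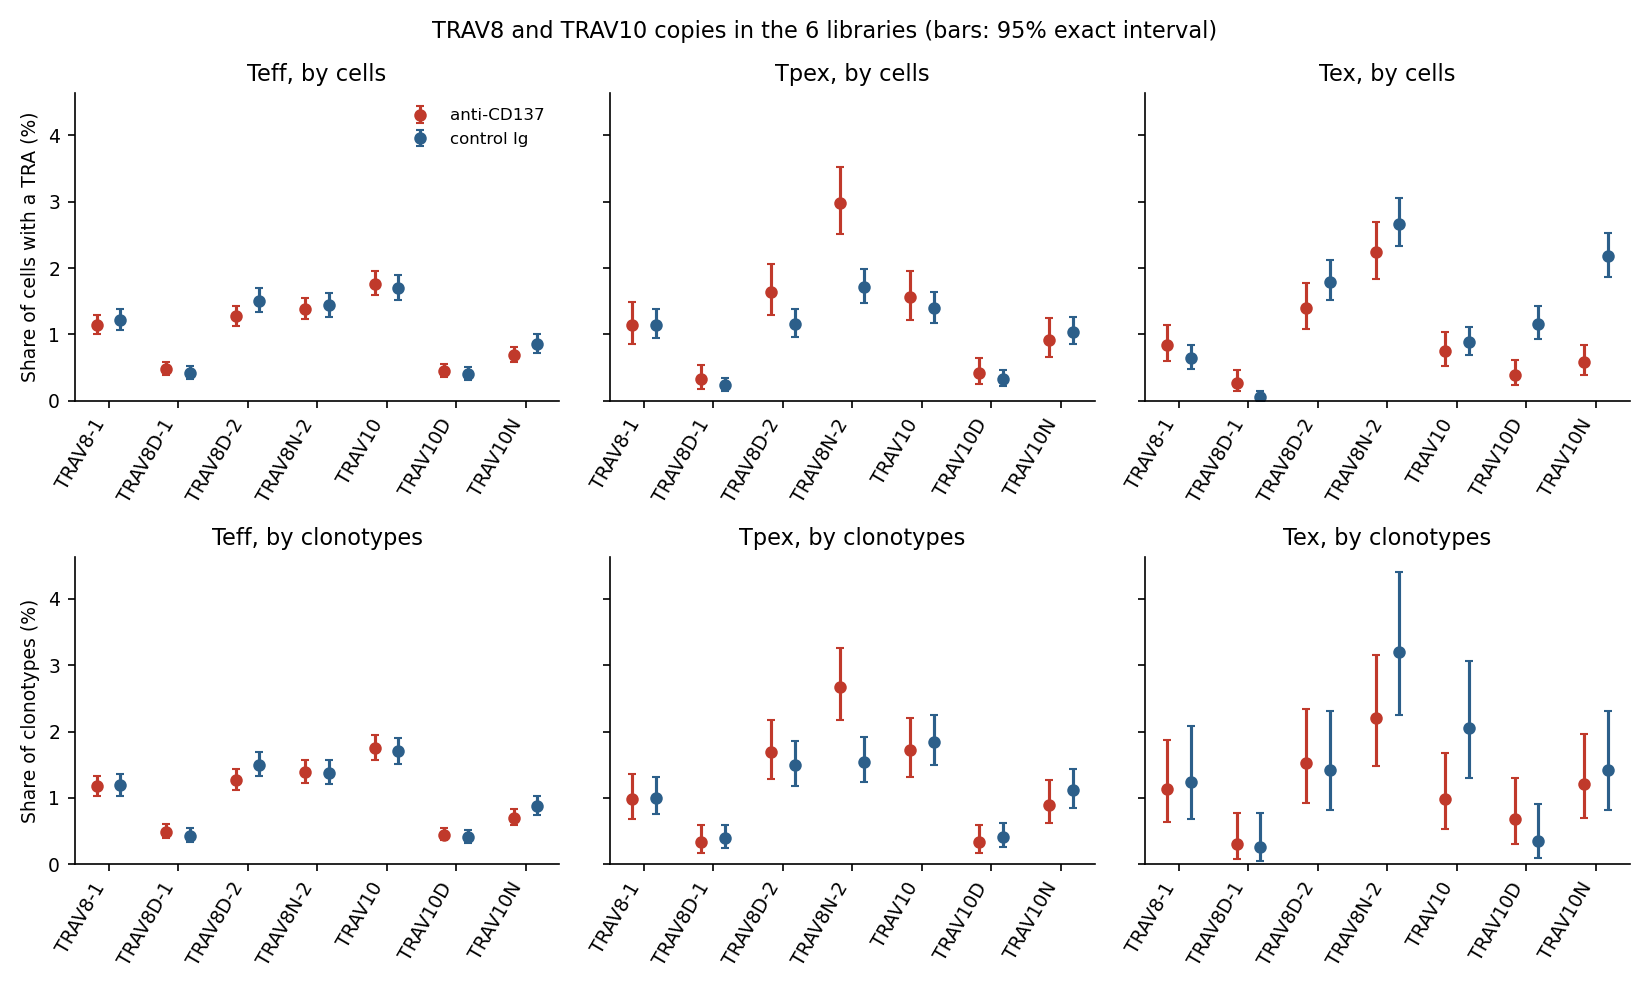
Share of each copy (vertical axis, percent) among cells with a TRA (top) and among clonotypes (bottom) in the 3 sorted subsets, for anti-CD137 (red) and control Ig (blue), with exact 95% intervals. TRAV8N-2 in anti-CD137 Tpex (2.99% of cells, 2.67% of clonotypes) lies above control Tpex (1.71% and 1.55%), while TRAV10N in control Tex is at 2.18% of cells but 1.42% of clonotypes.

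Across the subsets of a treatment, TRAV8N-2 was higher in Tex than in Teff with each antibody. With anti-CD137 it held 1.39% of clonotypes in Teff, 2.67% in Tpex and 2.20% in Tex, and with control Ig 1.38% in Teff, 1.55% in Tpex and 3.20% in Tex. By clonotypes it was the 1 copy of 7 called higher in anti-CD137 Tpex than in Teff, where 7.14 percent of TRAV segments were higher and 15.5 percent, but 0 copies, lower. In control Tpex against Teff, 0 of 7 copies were called in either direction, where 3.61 percent of segments were higher and 4.82 percent lower. In Tex against Teff, 3 of 7 copies were called higher with anti-CD137 (TRAV8N-2, TRAV10D and TRAV10N) and 2 of 7 with control Ig (TRAV8N-2 and TRAV10N), where 19.5 percent and 15.9 percent of TRAV segments passed. Of these, only the TRAV8N-2 differences had intervals above 0, at 0.813 points (0.0690 to 1.77) with anti-CD137 and 1.83 points (0.857 to 3.04) with control Ig. TRAV8-1 was at 1.18%, 0.985% and 1.14% of clonotypes in anti-CD137 Teff, Tpex and Tex, and at 1.19%, 1.01% and 1.25% in the control subsets. Called lower in Tex than in Teff were TRAV10 and TRAV8D-1 with anti-CD137 and TRAV8D-1 with control Ig, where 23.2 percent and 20.7 percent of segments passed.

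Counted by cells, large clonotypes enter these subset comparisons. In anti-CD137 Tpex against Teff, TRAV8N-2 was the 1 copy of 7 called higher (2.16-fold), where 9.52 percent of segments were higher and 19 percent, but 0 copies, lower. In anti-CD137 Tex against Teff, TRAV8N-2 was again the 1 copy called higher (1.62-fold; 18.3 percent of segments), and TRAV10 (ratio 0.426) and TRAV8D-1 (0.566) were the 2 called lower, where 43.9 percent of segments were. In control Tpex against Teff, TRAV8D-1 was the 1 copy called lower (0.561), where 25.3 percent of segments were lower and 4.82 percent, but 0 copies, higher. In control Tex against Teff, 3 copies were called higher, TRAV10D (2.89-fold), TRAV10N (2.54-fold) and TRAV8N-2 (1.85-fold), where 21.7 percent of segments were. The 3 called lower were TRAV10 (0.522), TRAV8-1 (0.531) and TRAV8D-1 (0.151), where 59 percent of segments were.

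The J segments joined to each copy were described over the clonotypes of the 6 libraries together, beside all other TRAV segments. TRAV8-1 was joined to TRAJ22 in 122 of 552 clonotypes (22.1%), against 7.77% for other TRAV (difference 14.3 points, 10.9 to 18.03), and to TRAJ30 in 15.04%, against 4.96%. TRAV8D-1, its near twin, was joined most to TRAJ30, in 36 of 211 clonotypes (17.1%), and to TRAJ22 in 12.8%. This order did not hold in Teff, where TRAJ30 and TRAJ22 had 15 clonotypes each of 97 in anti-CD137 and TRAJ30 had 8 and TRAJ22 12 of 74 in control. In Tpex, TRAJ30 had 4 of 12 in anti-CD137 and 6 of 21 in control, and TRAJ22 had 0 in each. TRAV8D-2 was joined most to TRAJ12, in 60 of 681 clonotypes (8.81%, against 3.26% for other TRAV), and TRAJ15 (6.61%, against 3.19%). TRAV8N-2 was joined to the same pair, TRAJ12 in 70 of 751 clonotypes (9.32%) and TRAJ15 in 8.39%, followed by TRAJ26 in 7.59%. In anti-CD137 Teff alone TRAJ30 (26 of 273) and TRAJ22 (24) came before TRAJ12 and TRAJ15 (23 each), while in control Teff TRAJ12 and TRAJ15 (22 each of 235) led. J segments that were rare with TRAV8N-2 included TRAJ49, in 6 clonotypes (0.799%, against 4.30%). Of 43 J segments, 4 were at least 1.5-fold higher and 23 at least 1.5-fold lower with TRAV8-1 than with other TRAV. The numbers were 6 higher and 23 lower for TRAV8D-1, 11 and 17 for TRAV8D-2, and 8 and 16 for TRAV8N-2. The same count for single other TRAV segments is not given here, so these numbers have no background and are a description only.

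The share of TRAV8-1 clonotypes with TRAJ22 was above that of other TRAV in the Teff and Tpex libraries. It was 28.6% in anti-CD137 Teff and 19.2% in control Teff, while other TRAV lay between 6.78% and 8.20% in these 4. In anti-CD137 Tpex it was 8 of 35 (22.9%, 10.4 to 40.1), behind TRAJ30 with 11. In control Tpex it was 8 of 54 (14.8%, 6.62 to 27.1), an interval that includes the 7.30% of other TRAV. In Tex it was seen in 1 of 15 anti-CD137 and 0 of 14 control clonotypes. TRAV8N-2 with TRAJ12 was at 8.42% in anti-CD137 Teff and 9.36% in control Teff, at 14.7% in anti-CD137 Tpex and 4.82% in control Tpex, and at 20.7% in anti-CD137 Tex (6 of 29) and 2.78% in control Tex (1 of 36).

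For the TRAV10 copies the numbers of J segments past the 1.5-fold limit were 6 higher and 15 lower for TRAV10, 5 and 11 for TRAV10D, and 9 and 16 for TRAV10N. They too have no background from single other TRAV segments. TRAV10 was joined most to TRAJ22 (66 of 830 clonotypes, 7.95%, against 7.77%), TRAJ26 (7.83%, against 5.07%) and TRAJ23 (6.39%, against 4.25%). TRAV10N was joined to TRAJ22 in 8.76%, to TRAJ9 in 33 of 411 (8.03%, against 3.28%; difference 4.75 points, 2.30 to 7.81) and to TRAJ23 in 7.30%. TRAV10D was joined to TRAJ23 in 16 of 205 clonotypes (7.80%), TRAJ22 in 7.32% and TRAJ26 in 5.85%.

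**Figure D2:**
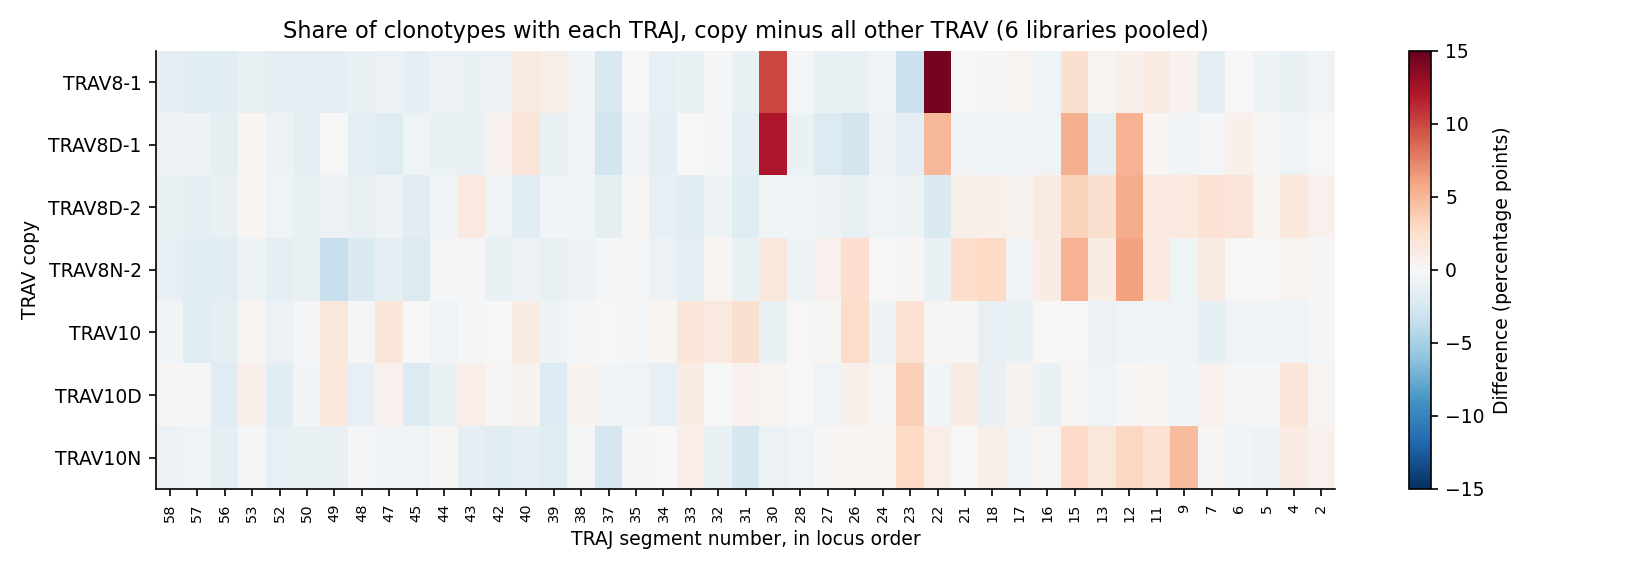
Difference in the share of clonotypes with each J segment (horizontal axis, in locus order from 5′ to 3′), copy minus all other TRAV, in percentage points (colour), over the 6 libraries. TRAV8-1 and TRAV8D-1 are darkest at TRAJ30 and TRAJ22, with 14.3 points for TRAV8-1 at TRAJ22, and TRAV8D-2 and TRAV8N-2 at TRAJ12.

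The copies of TRAV10 differed among themselves in Teff in where their J segments lay. In anti-CD137 Teff, 195 of 344 TRAV10 clonotypes (56.7%) had a J number above 30, against 59 of 226 for TRAV10D and TRAV10N together (26.1%), a difference of 30.6 points (22.3 to 38.3). In control Teff the shares were 50.3% for TRAV10 and 35.2% for TRAV10D and TRAV10N (15.2 points, 6.24 to 23.8). Taken singly, TRAV10N was at 23.2% in anti-CD137 Teff and 28.2% in control Teff. TRAV10D was at 30.7% in anti-CD137 Teff but at 50% in control Teff, close to TRAV10. The pooled difference in control Teff thus lay with TRAV10N. With a J number above 40 in place of 30, the differences between TRAV10 and the D and N copies together were 7.78 and 5.31 points in anti-CD137 and control Teff. Outside Teff each interval included 0: the difference was 7.90 points in anti-CD137 Tpex (-12.4 to 27.2) and 11.5 in control Tpex (-3.53 to 25.9), and -13.2 in anti-CD137 Tex (-43.5 to 23.2) and 14.1 in control Tex (-16.8 to 41.8). For TRAV8 in Teff the intervals included 0: TRAV8-1 was at 23.8% and the D and N copies at 26.7% in anti-CD137 Teff (-2.85 points, -9.33 to 4.10), and at 28.1% and 26.5% in control Teff (1.53 points, -5.65 to 9.15). By treatment, TRAV10D was at 30.7% in anti-CD137 Teff (27 of 88) and had 35 of 70 in control Teff, a difference of -19.3 points (-34.7 to -3.07), while the intervals of the other 6 copies included 0.

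Over the 69 TRAV segments with at least 100 clonotypes in both Teff libraries together, the share with a J number above 30 was higher for segments nearer to the J cluster. Pearson's r with the distance was -0.70 in anti-CD137 Teff and -0.69 in control Teff, and Spearman's rho -0.71 and -0.72, given as a description since the segments share their libraries. The position was added after values had been seen. TRAV10, at 649 kb, was within the range of its 6 nearest segments in each Teff library. TRAV8-1, at 685 kb, was at 23.8% in anti-CD137 Teff (18.5 to 29.8), where its 6 nearest segments had 26.6% to 44.8%, and at 28.1% in control Teff (22.01 to 34.8), where they had 28.6% to 42.5%. Its interval overlapped that of the lowest of them in each library, TRAV7-3 in anti-CD137 Teff (21.9 to 31.6) and TRAV6-4 in control Teff (17.3 to 42.2).

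**Figure D3:**
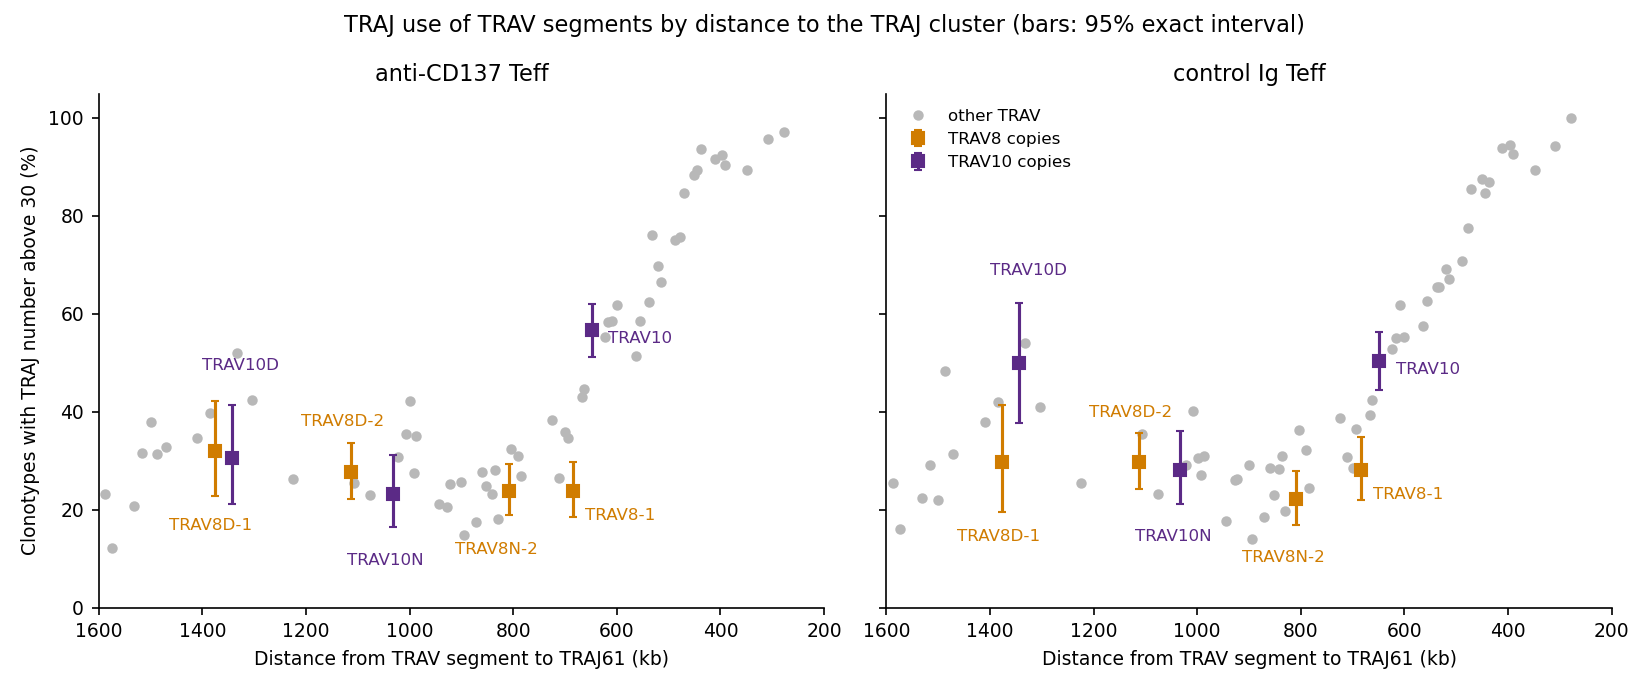
Share of Teff clonotypes with a J number above 30 (vertical axis, percent) against the distance of the V segment from TRAJ61 (horizontal axis, kb, decreasing to the right) in anti-CD137 (left) and control (right) Teff, with exact 95% intervals for the TRAV8 and TRAV10 copies. TRAV10 at 649 kb (56.7% in anti-CD137 Teff, 50.3% in control Teff) lies with the other TRAV (grey), and TRAV8-1 at 685 kb (23.8% and 28.1%) lies at the low end of its neighbours, within the interval of the lowest.

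The CDR3 starts of the families differ in their germline bases, and only 1 base differs among the TRAV8 copies, in capitals.
TRAV8-1, TRAV8D-1 and TRAV8N-2: tgtgctacTgatg
TRAV8D-2: tgtgctacAgatg
TRAV10, TRAV10D and TRAV10N: tgtgcagcaagca
TRAV8 clonotypes kept 11 of these bases at the median and TRAV10 clonotypes 12. A median of 2 CDR3 bases in TRAV8 and 3 in TRAV10 matched neither germline segment, and none did in 19.6% of TRAV8 and 15.6% of TRAV10 clonotypes. Among the copies, TRAV8D-2 had the most such clonotypes, 24.4%, and TRAV10D the fewest, 12.7%. The CDR3 was 12.9 ± 1.20 residues long in TRAV8 and 13.4 ± 1.23 in TRAV10, against 13.6 ± 1.51 for other TRAV (mean ± SD over clonotypes).

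Some TRA CDR3s recurred with many TRB chains. Found in both treatments were 179 TRAV8 CDR3 amino acid sequences, 23.1% of those with anti-CD137 and 22.6% of those with control Ig. For TRAV10 there were 94, 16.6% with anti-CD137 and 16.1% with control Ig. For all other TRAV pooled the shares were 27.6% and 28.0%. That pool held 14782 sequences with anti-CD137 and 14579 with control Ig, against 776 and 791 for TRAV8 and 567 and 585 for TRAV10. The sizes were not made equal, so these shares do not compare the families with other single TRAV families. The TRAV8 sequence in most clonotypes joined TRAJ22 and was made by each of the 4 TRAV8 copies, in 33 clonotypes with 33 TRB partners, 16 with anti-CD137 and 17 with control Ig. The leading TRAV10 sequence joined TRAJ9 and was found in 24 clonotypes with 24 TRB partners, 1 of them in 2 libraries, mostly from TRAV10N. Their most frequent nucleotide versions hold no base outside the germline ends, and so no capitals.
TRAV8-1 with TRAJ22: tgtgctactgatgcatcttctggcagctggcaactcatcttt
TRAV8D-2 with TRAJ22: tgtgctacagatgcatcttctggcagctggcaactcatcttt
TRAV10N with TRAJ9: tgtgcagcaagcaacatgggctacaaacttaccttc
The TRAV8 sequence was in 15 clonotypes of 1 cell each in each Teff library, in 1 clonotype of 1 cell in each Tpex library, and in 1 clonotype of 4 cells in control Tex. The TRAV10 sequence was in 10 anti-CD137 and 9 control Teff clonotypes of 1 cell each, in 4 clonotypes with 7 cells in control Tpex, and in 2 clonotypes with 38 cells in control Tex, and in 0 of anti-CD137 Tpex and Tex. The other recurring sequences that led the TRAV8 list joined TRAJ12, TRAJ22 and TRAJ30, and those of TRAV10 joined TRAJ33, TRAJ23 and TRAJ22.

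TRAV8 clonotypes were paired most with TRBV3, in 211 of 2195 (9.61%, against 7.28% for other TRAV; 2.33 points, 1.11 to 3.67), then TRBV12-1 (7.84%) and TRBV1 (7.24%). TRAV10 clonotypes were paired most with TRBV12-1, in 146 of 1446 (10.1%, against 6.95%; 3.15 points, 1.63 to 4.84), then TRBV3 (8.23%) and the combined name TRBV12-2+TRBV13-2 (8.02%). By library, TRBV12-1 was at 11.2% and 10.6% of TRAV10 clonotypes in anti-CD137 and control Teff, and at 11.4% in anti-CD137 Tpex but 3.87% in control Tpex, where other TRAV were at 7.40%. TRBV3 was at 8.24% of TRAV8 clonotypes in anti-CD137 Teff and 10.8% in control Teff, where other TRAV were at 7.40% and 7.45%. In Tpex it was at 9.90% in anti-CD137 and 12.2% in control (other TRAV 6.44% and 7.28%). In Tex it was at 8.82% in anti-CD137 (6 of 68) but 4.35% in control (3 of 69), where other TRAV were at 6.69% and 5.83%. TRBV3 led for TRAV8D-1 (10.4%), TRAV8D-2 (11.2%) and TRAV8N-2 (9.05%), and the combined TRBV12-2+TRBV13-2 for TRAV8-1 (9.06%). TRBV12-1 led for TRAV10 (10.1%), TRAV10D (10.2%) and TRAV10N (9.98%). Of the 20 TRBV segments with at least 0.5% of other TRAV clonotypes, TRBV2 had the lowest ratio to other TRAV in each family, 0.644 for TRAV8 and 0.475 for TRAV10, and TRBV31 the highest, 1.47 for TRAV8 and 1.54 for TRAV10.

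The part of the cells that sat in expanded clonotypes, those of at least 2 cells in a library, was higher in Tpex than in Teff and higher again in Tex, in each treatment. For TRAV8 it was 2.89% in Teff, 39.6% in Tpex and 78.7% in Tex with anti-CD137, and 5.26%, 55.0% and 89.7% with control Ig. For TRAV10 it was 4.92%, 31.3% and 72.3% with anti-CD137, and 1.94%, 46.2% and 93.1% with control Ig. Other TRAV were at 4.58%, 31.9% and 82.6% with anti-CD137, and 3.69%, 56.7% and 91.9% with control Ig. Anti-CD137 was lower than control in Tpex and Tex for both families: for TRAV8 the differences were -15.5 points in Tpex (-23.0 to -7.68) and -10.97 in Tex (-17.6 to -4.78). For TRAV10 the differences were -14.9 points in Tpex (-24.8 to -4.41) and -20.8 in Tex (-32.0 to -11.0), and for other TRAV -24.8 and -9.32. Defined by the TRB CDR3 alone, the Tpex shares turned round, to 65.9% in anti-CD137 and 56.4% in control for TRAV8, and 64.1% and 48.4% for TRAV10. A TRB found with several TRA chains counts as several clonotypes when both chains define them, so the definition bears on clonotype numbers and expanded shares. Thinned to equal numbers of cells, the TRAV8 Tpex shares were 39.6% in anti-CD137 and 47.1% in control.

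In Teff the families differed in opposite directions, with small numbers: 25 of 865 TRAV8 cells were expanded in anti-CD137 and 42 of 798 in control (-2.37 points, -4.42 to -0.398), while 29 of 589 TRAV10 cells were in anti-CD137 and 10 of 515 in control (2.98 points, 0.718 to 5.28). Few clonotypes carried these numbers: clonotypes of 11 and 7 cells were among the 42 control TRAV8 cells, and clonotypes of 7 and 5 cells among the 29 anti-CD137 TRAV10 cells. By the TRB CDR3 alone the TRAV8 difference was -5.51 points and the TRAV10 difference 0.164 points. Among the copies in Tex, the number of cells per clonotype lay between 1.75 (TRAV10N) and 3.62 (TRAV8N-2) with anti-CD137, and between 1.67 (TRAV8D-1) and 23.0 (TRAV10D) with control Ig.

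**Figure D4:**
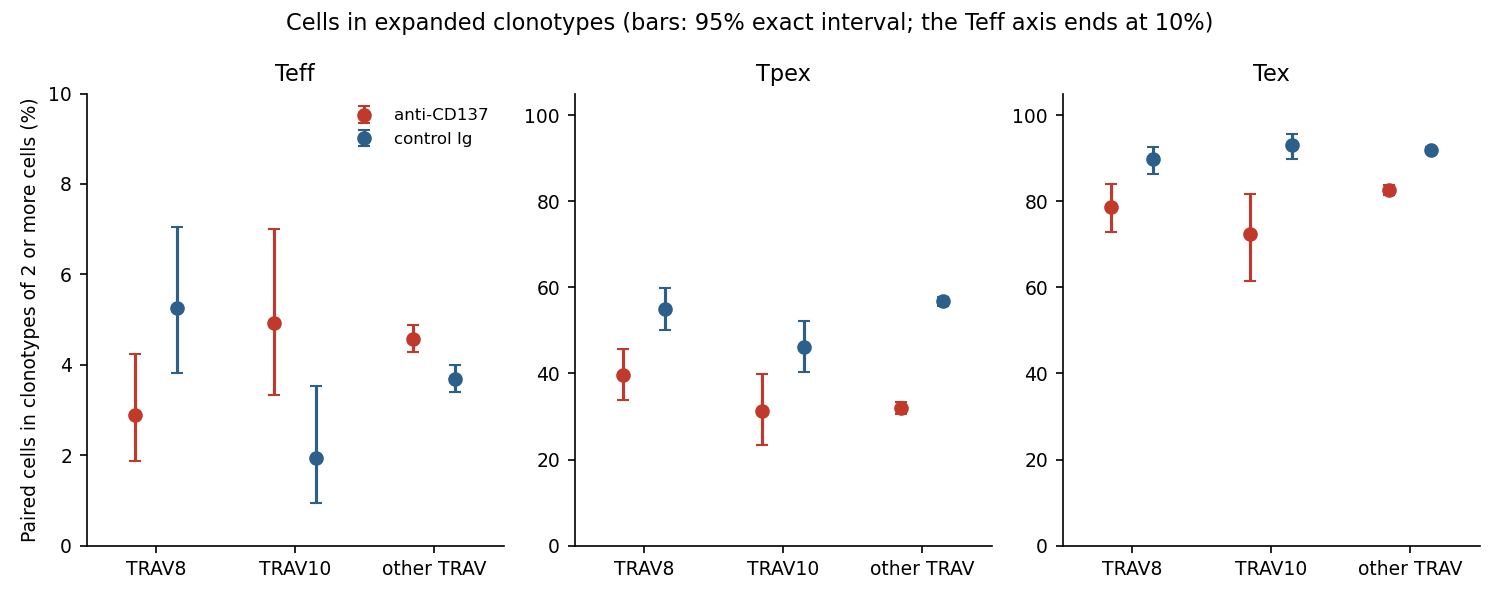
Share of paired cells in clonotypes of at least 2 cells (vertical axis, percent; the Teff panel ends at 10%) for TRAV8, TRAV10 and all other TRAV in Teff, Tpex and Tex, for anti-CD137 (red) and control Ig (blue), with exact 95% intervals. In Tex the shares are 78.7% and 89.7% for TRAV8 and 72.3% and 93.1% for TRAV10 in anti-CD137 and control.

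The largest family clonotypes were in Tex, and most were also found in Tpex of the same treatment. They are named by their segments, and capitals mark CDR3 bases that match neither germline segment.
TRAV8D-2 with TRAJ6 and TRBV19: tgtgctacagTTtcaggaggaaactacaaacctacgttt
TRAV8N-2 with TRAJ27 and TRBV3: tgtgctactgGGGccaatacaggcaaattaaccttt
TRAV10D with TRAJ23 and TRBV14: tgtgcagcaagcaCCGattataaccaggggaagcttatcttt
TRAV10N with TRAJ23 and TRBV13-1: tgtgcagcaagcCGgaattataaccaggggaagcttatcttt
TRAV8D-2 with TRAJ4 and TRBV15: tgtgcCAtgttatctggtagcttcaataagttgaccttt
TRAV8-1 with TRAJ15 and TRBV1: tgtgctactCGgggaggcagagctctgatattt
With anti-CD137, the TRAV8D-2/TRAJ6 clonotype had 42 cells in Tex and 2 in Tpex, and a TRAV8N-2/TRAJ23 clonotype with TRBV13-1 had 29 in Tex and 1 in Tpex. The leading TRAV10 clonotype of that treatment, TRAV10/TRAJ40 with TRBV29, had 7 cells in Teff (0.0346% of paired cells), 6 in Tpex (0.134%) and 6 in Tex (0.127%). With control Ig, TRAV8N-2/TRAJ27 had 94 cells in Tex and 2 in Tpex, TRAV10D/TRAJ23 had 89 and 6, TRAV10N/TRAJ23 had 73 and 12, and TRAV8D-2/TRAJ4 had 69 and 10. TRAV8-1/TRAJ15 was larger in Tpex, with 42 cells there and 25 in Tex. A TRAV8N-2/TRAJ42 clonotype of control mice was found in each subset, with 11 cells in Teff, 16 in Tpex and 1 in Tex. No family clonotype was found in both treatments (0 of 3641).

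**Figure D5:**
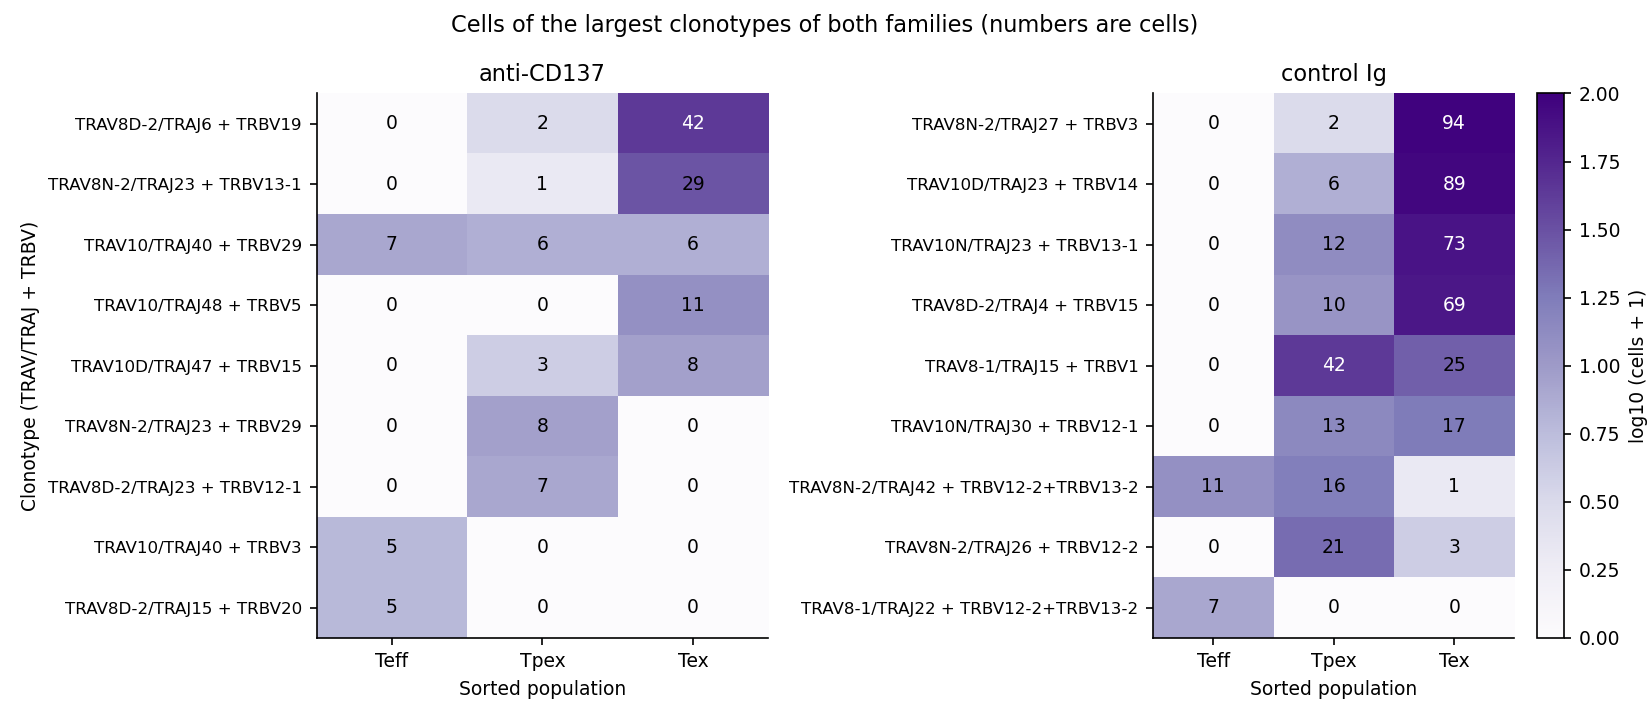
Cells of the largest TRAV8 and TRAV10 clonotypes (rows, named by TRAV, TRAJ and TRBV) in Teff, Tpex and Tex of anti-CD137 (left) and control (right) mice, with the number of cells in each field and log10 (cells + 1) as colour. The largest are TRAV8D-2/TRAJ6 with 42 cells in anti-CD137 Tex and TRAV8N-2/TRAJ27 with 94 in control Tex, and TRAV10/TRAJ40 is the 1 anti-CD137 clonotype shown with cells in each subset.

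Counted over all clonotypes, 62.4% of TRAV8 cells in anti-CD137 Tex (55.7 to 68.8) and 72.5% in control Tex (67.9 to 76.8) were in clonotypes also found in Tpex. For TRAV10 the shares were 31.3% in anti-CD137 (21.6 to 42.4) and 84.1% in control (79.7 to 87.8), and for other TRAV 43.6% and 78.9%. By clonotypes, 19 of 68 TRAV8 and 6 of 38 TRAV10 clonotypes of anti-CD137 Tex were found in Tpex, against 29 of 69 and 19 of 43 in control Tex. For other TRAV these were 17.7% and 44.0%. Tpex held 4471 paired cells in anti-CD137 and 10041 in control. Of other Tpex cells with the same TRB as a TRAV10 cell, 35.1% in anti-CD137 and 92.3% in control had the same TRA. For other TRAV these were 41.5% and 91.9%. Clonotypes of 89 and 73 cells were among the 333 control TRAV10 Tex cells, and clonotypes of 94 and 69 cells among the 408 control TRAV8 Tex cells. With anti-CD137, 138 of 221 TRAV8 Tex cells were in clonotypes also found in Tpex. Clonotypes of 42 and 29 cells were among these 138 and had only 2 and 1 cells in Tpex. The part that cell numbers, pairing and large clonotypes had in the shares found in Tpex was not tested. Of the Tex clonotypes with anti-CD137, 3 of 68 TRAV8 and 1 of 38 TRAV10 were also found in Teff, against 68 of 1210 (5.62%) for other TRAV. With control Ig these were 2 of 69 TRAV8 and 0 of 43 TRAV10, against 28 of 1012 (2.77%) for other TRAV. For TRAV10 in control Teff, 0 of 515 cells were shared with Tex (0% to 0.714%), against 39 of 16107 (0.242%) for other TRAV, which lies within that interval.

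In each library the family cells lay mainly in the authors' numbered clusters that held most other cells. In Teff these were clusters 0 and 2: TRAV8 had 43.5% in cluster 0 and 45.0% in cluster 2 with anti-CD137, and 48.7% and 37.8% with control Ig. TRAV10 had 36.2% and 51.4% with anti-CD137, and 42.2% and 48.5% with control Ig, against 40.4% and 47.8%, and 44.4% and 45.4%, for other TRAV. The TRAV8 difference from other TRAV in control Teff was -7.63 points in cluster 2 (-11.05 to -4.12) and 4.23 in cluster 0 (0.674 to 7.80). The TRAV10 difference in cluster 0 of anti-CD137 Teff was -4.17 points (-8.06 to -0.139). In Tpex most were in cluster 1, with 78.8% of TRAV8 and 85.6% of TRAV10 cells in anti-CD137 and 91.0% and 86.5% in control. Other TRAV were at 82.8% in anti-CD137 and 87.6% in control, where TRAV8 was 3.41 points higher (0.241 to 6.02). Cluster 5 held 50 TRAV8 cells in anti-CD137 Tpex, 4.29 points above other TRAV (-0.180 to 9.42), and 8 of the 50 were 1 TRAV8N-2/TRAJ23 clonotype. In control Tpex the direction was opposite, with 1.85% of TRAV8 cells in cluster 5 against 3.20% for other TRAV. In Tex the clusters differed by treatment for all cells: cluster 4 held 82.4% of TRAV8 and 80.7% of TRAV10 cells in anti-CD137 and 10.0% and 7.49% in control, while cluster 3 held 17.2% and 19.3% in anti-CD137 and 88.8% and 90.1% in control. Other TRAV were at 76.3% in cluster 4 in anti-CD137 and 7.93% in control. The TRAV8 difference there was 6.04 points in anti-CD137 Tex (0.318 to 10.9), where 38 of 187 TRAV8 cells were of the TRAV8D-2/TRAJ6 clonotype.

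Among the 55 other TRAV segments with at least 0.5% of clonotypes, the share by clonotypes across the 6 populations was most like that of TRAV8 for TRAV6-7-DV9 (Pearson's r of log2 shares 0.99), TRAV12-3 (0.96) and TRAV21-DV12 (0.93). It was most like that of TRAV10 for TRAV13N-4 (0.93), TRAV7-6 (0.92) and TRAV6-3 (0.85). These are descriptions over 6 libraries.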

How the data were processed

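Libraries were made with a Chromium 5′ kit, per the labels' protocols. Cell Ranger 3.0.2, Seurat 4.0.0 and mm10 come from the submitters' processing notes. The deposited cell table gives the count of UMIs and a cluster number per cell and the percent of mitochondrial UMIs, and the deposited TCR table gives the V and J segment, CDR3 and UMI count of each contig. The sources used here state no doublet step, and none was run without values per gene. Cells that carry 2 TRA chains were counted once, by the chain with the most UMIs.

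Contigs were joined to the cell table by library and barcode. A clonotype needed both chains, which 64661 cells had. The members and lists were chosen with earlier results of these data known. All copies are named. The lists held the 3 J and TRBV segments most used by each copy and the 2 largest clonotypes of each family and library if of at least 5 cells. They also held the 5 TRA CDR3s per family found in both treatments and in most clonotypes, and clusters with at least 5% of a library. The 3 other TRAV segments most like each family by Pearson's r were added to these. The text names only part of the J, TRBV, clonotype and CDR3 lists. The distance to the J cluster, J use by treatment for single copies, second TRA chains and the tables of recurring CDR3s by library were added after values had been seen. A CDR3 base was called germline when it lay in the unbroken match to the end of the V or J segment. Alternatives changed the chain, the cells, the minimum UMIs, the clonotype definition, the J limit and large clonotypes. Analyses used Python 3.11.15, numpy 2.4.6, pandas 2.3.3, scipy 1.17.1 and matplotlib 3.10.9, and were tested on simulated data.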

Additional observations from a re-analysis of the deposited data

Results flagged for a closer look

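The share of both families together differed between anti-CD137 and control in opposite directions by subset: it was 1.97 percentage points higher in Tpex (410 of 4556 cells in anti-CD137 and 715 of 10178 in control) and -2.92 points in Tex (6.47% and 9.40%). The share of cells in expanded clonotypes differed by -2.37 points for TRAV8 in Teff but by 2.98 points for TRAV10 in Teff, while TRAV10 was at -14.9 points in Tpex and -20.8 in Tex. The differences between subsets and between families were not tested.

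Chains and barcodes left out above also held family members. Among second TRA chains of cells, TRAV8 made up 6.91% in anti-CD137 Tpex, against 3.49% in control Tpex. In anti-CD137 Tex it made up 9.07%, against 1.84% in control Tex, and TRAV10 made up 5.81%, against 0.613%. These Tex chains came from few receptors. In anti-CD137 Tex, 19 cells held the CDR3 of the TRAV8D-2/TRAJ6 clonotype as the second chain, of which 18 had the same TRAV13N-3/TRAJ6 chain first. Another 47 cells had the TRAV8D-2/TRAJ6 chain first, and of the 27 among them with a second TRA, 25 had that TRAV13N-3 chain. Likewise 16 cells held a TRAV10N/TRAJ23 second chain, 15 of them behind the TRAV8N-2/TRAJ23 chain and with 1 TRB. Among TCR barcodes outside the cell table, TRAV8 made up 9.26% in anti-CD137 Tex, against 3.73% in control Tex, and 37 of the 141 carried the TRAV8D-2/TRAJ6 CDR3.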

How the results depend on the processing

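No paired analysis was possible because each treatment and subset had 1 library, so the groups share a single replicate number, and no result comes from a test. Of 92 alternatives to 23 comparisons, 81 stayed within the interval of the reported value, and 15 comparisons did so under each alternative tried. The TRAV8 difference by cells in Tex was -1.24 points with cells of exactly 1 TRA, 0.700 with all TCR barcodes and -1.41 with cells above the median UMIs. For TRAV10 in Tex it was -1.63 points without the largest clonotype of the family in each library. With the TRB CDR3 alone, the expanded differences were -5.51 (TRAV8) and 0.164 (TRAV10) in Teff, and turned to 9.52 and 15.7 in Tpex. The TRAV8 expanded difference in Tpex was -7.57 when each library was thinned to 4471 cells. The TRAV10 J difference was 7.78 (anti-CD137) and 5.31 (control) with J numbers above 40. By cells, across the 3 subsets, 90 treatment calls over all TRAV segments became 61 with a fold of 2 and 106 with no minimum. Chosen after seeing the data were the alternatives for single copies, where TRAV10D in Tex turned to 0.192 points without its largest clonotypes, and leaving out anti-CD137 Tpex, which moved no J share past its interval. The cause of these shifts was not tested. In Tex the copies had 3 to 36 clonotypes per library, which limits the precision there.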

Other observations

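In anti-CD137 Tex, 69 cells shared the TRBV19 chain of the TRAV8D-2/TRAJ6 clonotype. The TRAV8D-2 chain was the first TRA in 42 of them and the second in 18. 1 TRAV10 family CDR3 with TRAJ33 had 14 entries, a clonotype being counted once per library, and 13 different clonotypes. Of these, 6 anti-CD137 entries used TRAV10N with 4 bases outside the germline ends. TRAV10 encoded it in 6 entries with 0 such bases, 4 in anti-CD137 and 2 in control. In anti-CD137 the CDR3 had 5 entries in Teff, 4 in Tpex and 2 in Tex. Of other anti-CD137 Tpex cells with the same TRB as a TRAV10 cell, 35.1% had the same TRA, against 41.5% for other TRAV. Whether several entries stem from 1 TRA rearrangement was not tested.
TRAV10N with TRAJ33: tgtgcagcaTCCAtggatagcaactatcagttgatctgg
TRAV10 with TRAJ33: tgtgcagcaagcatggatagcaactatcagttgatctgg
Cells of family chains with 2 TRA made up 22.03% of the 227 TRAV8 cells in anti-CD137 Tex and 3.91% in control Tex, against 8.31% and 6.55% of other cells. The anti-CD137 Tex share came mostly from few receptors: 27 of these cells had the TRAV8D-2/TRAJ6 chain first. Another 15 had the TRAV8N-2/TRAJ23 chain first and the TRAV10N/TRAJ23 chain second.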
